A study of Homo sapiens with 11 samples.

Results

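The ERBB family genes were followed in MDA-MB-468 cells exposed to tumour necrosis factor (TNF), apigenin, both or neither. Of 10 named genes, 8 had a probe set whose array annotation gives that symbol alone, out of 22395 genes with such a probe set. They were the receptor genes EGFR and ERBB3, the ligand genes TGFA, HBEGF, BTC, EREG and EGF, and ERRFI1, an inhibitor of the receptors. ERBB2 and AREG had no probe set of their own in the annotation table and were not analysed here. Each of the 8 had exactly 1 probe set, and all 8 passed the filter on low values that left 15865 genes for testing.

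MDA-MB-468 is an established line of triple-negative breast cancer from a pleural effusion, known for an amplified EGFR gene. There were 3 arrays of cells given TNF (40 ng/ml) plus apigenin (40 µM), 3 of cells given TNF alone (40 ng/ml), 2 of cells given apigenin alone (40 µM) and 3 of control cells labelled as untreated, all at 24 h. TNF is an inflammatory cytokine and apigenin a plant flavone. The labels do not say whether control cells received a vehicle, or whether replicates were separate cultures, so p-values measure only the spread between these arrays.

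ERBB receptors are tyrosine kinases of the cell surface that pair up when a ligand binds and then signal through the RAS-MAPK and PI3K-AKT branches. Most of their ligands are made as membrane-anchored precursors and released by ADAM proteases. ERRFI1, also called MIG6, is induced by receptor signalling and binds the kinase domain of EGFR, which closes a negative feedback loop. In basal-like breast cancer EGFR is often abundant, and its ligands can act on the cell that makes them.

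Values are log2 probe set summaries. The median over all 53617 probe sets was 2.53, and a level near it is taken here as close to background. No separate measure of background was used. A level on an array is specific to its probes, so genes were compared between treatments and not with each other. Each array averages the RNA of a whole culture, so fewer expressing cells and less RNA per cell cannot be told apart. Array apigenin 1 differed from the rest, with a median of 3.89 over tested genes, against 4.08 to 4.32 on the other 10 arrays, and an interquartile range of 2.4, against 2.63 to 2.91. Of 14 epithelial and basal markers, 11 were measured, and each lay above the probe set median on every array, with EPCAM between 8.83 and 9.38. The hormone receptor genes ESR1 (1.93 to 2.72) and PGR (1.4 to 1.66) had medians below the probe set median. The leukocyte marker PTPRC peaked at 1.61 and the endothelial marker VWF at 2.01. Of the other 10 measured markers of fibroblasts, endothelium and leukocytes, COL1A1, CDH5, KDR and CD68 had medians above the probe set median, between 3.32 and 5.34.

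ERRFI1 was the only one of the 8 genes called in any comparison: it rose 1.82-fold with TNF plus apigenin against control. EGFR stayed within 10.53 to 11.14 on all 11 arrays, and no change of a receptor or ligand gene passed the test. A call is a Benjamini-Hochberg adjusted p under 0.05 over all genes in a limma fit, and errors of changes are limma standard errors (SE). With TNF plus apigenin against control, 1 of 8 was called higher and 0 lower, where 1.04% of all genes were called higher and 1.78% lower (2.82% either way), and 1 of 8 lay past an unadjusted p of 0.05, as did 15.9% of all genes. Limma called 0 of 8 with TNF against control, where 0.7% of all genes were called, and 1 lay past the unadjusted threshold (7.41% of all genes). It called 0 with apigenin against control, where 3.66% of genes were called, and 0 lay past the unadjusted threshold (19.5% of genes). For TNF plus apigenin against TNF it called 0, where 1.07% of genes were called, and 3 of the 8 were past the unadjusted threshold (11.1%). Set against apigenin alone, the combination gave 0 calls, where 0.574% of genes were called, and 1 of the 8 was past the unadjusted threshold (15.7%). For the interaction, the TNF effect with apigenin minus that without it, limma called 0, where 0.0252% of genes were called, and 0 of the 8 were past the unadjusted threshold (8.16%).

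The median change of the 8 genes lay close to that of all genes where apigenin was compared: -0.14 against -0.18 with apigenin against control, and 0.15 against 0.16 with TNF plus apigenin against apigenin. For TNF against control it was 0.23, against -0.04 for all genes. It was 0.01 against -0.02 with TNF plus apigenin against control and -0.1 against 0.02 with TNF plus apigenin against TNF. The comparisons share arrays, so these values are not independent of each other. After a scaling of the arrays to equal quantiles or medians the median of all genes for apigenin against control moved to -0.03 or 0.03.

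**Figure D1:**
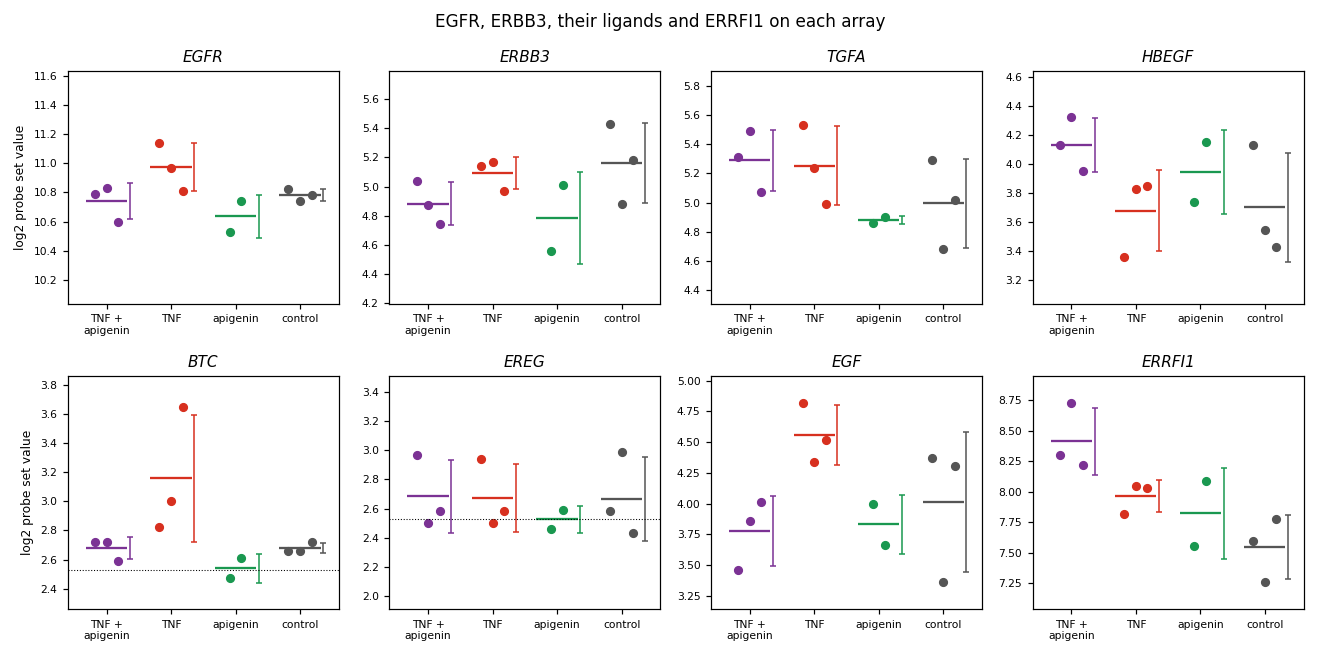
Log2 probe set value (vertical axis, a separate range for each gene) of the 8 genes on each array by treatment, with a horizontal line at the group mean and a bar of ± 1 SD beside it (n = 3, apigenin n = 2); the dotted line is the probe set median of 2.53. ERRFI1 lay between 8.22 and 8.73 with TNF plus apigenin, above the control arrays at 7.26 to 7.78, while EREG stayed near the dotted line in every group.

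EGFR encodes the receptor for EGF, TGF-alpha, amphiregulin and other ligands. It read 10.79, 10.83 and 10.6 with TNF plus apigenin, 11.14, 10.97 and 10.81 with TNF, 10.53 and 10.74 with apigenin and 10.82, 10.74 and 10.78 in control. The TNF arrays included the highest values and the apigenin arrays the lowest one, and TNF overlapped control at its lower end. With TNF against control the change was 0.19 ± 0.16 (SE; 95% interval -0.15 to 0.54, limma adjusted p = 0.901). Against TNF, the combination gave -0.24 ± 0.16 (interval -0.58 to 0.11, limma adjusted p = 0.665). These intervals bound any change of the EGFR probe set value well within 1 on the log2 scale. The highest value of any probe set was 12.31, and whether the signal was compressed at the level of EGFR was not tested.

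Apigenin alone against control gave EGFR a change of -0.14 ± 0.18 (interval -0.53 to 0.24), which became -0.04 without array apigenin 1 and 0.07 when each array was shifted to the same median. TNF plus apigenin against control gave -0.04 ± 0.16 (interval -0.38 to 0.3), or 0.01 after quantile normalization. TNF plus apigenin against apigenin gave 0.1 ± 0.18 (interval -0.28 to 0.49), or -0.1 after the median shift. The order of the group means, TNF over control over TNF plus apigenin over apigenin, therefore holds no neighbours that differed beyond their spread.

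ERBB3 encodes a receptor with little kinase activity of its own that pairs with ERBB2 and is a strong recruiter of PI3K. Its values were 5.04, 4.87 and 4.74 with TNF plus apigenin, 5.14, 5.17 and 4.97 with TNF, 4.56 and 5.01 with apigenin, and 5.43, 4.88 and 5.18 in control. The control arrays spanned most of this range, and every group overlapped them. The change was -0.28 ± 0.19 with TNF plus apigenin against control (limma adjusted p = 0.527), -0.21 ± 0.19 with TNF plus apigenin against TNF (adjusted p = 0.784) and -0.38 ± 0.21 with apigenin against control (adjusted p = 0.341). That last value was -0.16 without array apigenin 1, the lowest of the 11, and -0.61 without array apigenin 2, and it was -0.15 after quantile normalization.

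Among the other receptors, ERBB4 lay between 1.64 and 2.34 on all arrays, below the probe set median of 2.53, and did not enter the test. The neuregulin genes NRG1, NRG3 and NRG4, whose products are ligands of ERBB4 (that of NRG1 also of ERBB3), did not exceed 2.5 on any array and were not tested either. NRG2 and the epigen gene EPGN were tested and neither was called in any comparison, with medians over the arrays of 2.22 and 2.35.

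EGF, the founding ligand of the family, read 3.46, 3.86 and 4.01 with TNF plus apigenin, 4.82, 4.34 and 4.52 with TNF, 4 and 3.66 with apigenin, and 4.37, 3.36 and 4.31 in control. All 3 TNF arrays lay above all TNF plus apigenin and apigenin arrays, while the control arrays reached from the lowest of the 11 values to just above the lowest TNF array. EGF differed by -0.78 ± 0.26 with TNF plus apigenin against TNF, a 1.72-fold lower mean level (interval -1.33 to -0.24, unadjusted p = 0.00802 by limma). After adjustment this did not pass (adjusted p = 0.214), and it ranked 595 of 15865 genes by p. With TNF against control the change was 0.54 ± 0.26 (limma adjusted p = 0.677), or 0.22 without control 2, the array with the lowest EGF value. The interaction was -0.6 ± 0.38 (limma adjusted p = 0.648).

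BTC encodes betacellulin, a ligand of EGFR and ERBB4. It read 2.72, 2.72 and 2.59 with TNF plus apigenin, 2.82, 3 and 3.65 with TNF, 2.47 and 2.61 with apigenin, and 2.66, 2.66 and 2.72 in control. The TNF arrays held its 3 highest values, and array TNF 3 stood above the other two. Outside the TNF group the gene stayed between 2.47 and 2.72, close to background, so no fold is given. Its change was 0.48 ± 0.2 with TNF against control (unadjusted p = 0.0293, adjusted p = 0.562 by limma) and -0.48 ± 0.2 with TNF plus apigenin against TNF (unadjusted p = 0.0283, adjusted p = 0.361 by limma). Without TNF 3 these were 0.23 and -0.24. The interaction was -0.34 ± 0.3 (limma adjusted p = 0.705).

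TGFA encodes TGF-alpha, a ligand that binds EGFR. Its values were 5.31, 5.49 and 5.07 with TNF plus apigenin, 5.53, 5.24 and 4.99 with TNF, 4.86 and 4.9 with apigenin and 5.29, 4.68 and 5.02 in control. The TNF plus apigenin arrays all lay above both apigenin arrays and overlapped the others. The change was 0.41 ± 0.22 with TNF plus apigenin against apigenin (limma adjusted p = 0.385), but 0.15 after quantile normalization and 0.2 after the median shift. It was 0.29 ± 0.2 with TNF plus apigenin against control (adjusted p = 0.529) and 0.26 ± 0.2 with TNF against control (adjusted p = 0.885). Without control 2, the array with the lowest TGFA value, these were 0.14 and 0.1. With another array left out they ranged up to 0.44 and 0.4.

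HBEGF encodes heparin-binding EGF-like growth factor, a ligand of EGFR and ERBB4. It read 4.13, 4.32 and 3.95 with TNF plus apigenin, 3.36, 3.83 and 3.85 with TNF, 3.74 and 4.15 with apigenin, and 4.13, 3.55 and 3.43 in control. The TNF plus apigenin arrays lay above all TNF arrays, and control 1 reached into their range. The change was 0.45 ± 0.22 with TNF plus apigenin against TNF (limma adjusted p = 0.463) and 0.43 ± 0.22 with TNF plus apigenin against control (adjusted p = 0.354). With an array left out these ranged from 0.29 to 0.55 and from 0.29 to 0.64.

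EREG, the gene of epiregulin, stayed between 2.43 and 2.99 on all arrays, with its highest values of 2.97, 2.94, 2.59 and 2.99 in TNF plus apigenin, TNF, apigenin and control. Its changes lay between -0.14 and 0.16, and a level so close to background limits what the array could show. In RefSeq, EPGN, EREG, AREG and BTC follow each other on chromosome 4 with 0 protein-coding genes between neighbours. Of the 3 with a probe set of their own, EREG and EPGN stayed near background in every group, and BTC had its highest value, 3.65, on array TNF 3.

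The remaining changes of the 8 genes were smaller than their SE. They covered ERBB3, HBEGF and EREG with TNF against control (-0.07 to 0.01) and 5 ligand genes with apigenin against control (-0.18 to 0.24). Against TNF alone, TNF plus apigenin left TGFA and EREG (0.01 to 0.04) in this class, and against control BTC, EREG and EGF (-0.24 to 0.01). Between TNF plus apigenin and apigenin, ERBB3, HBEGF, BTC, EREG and EGF lay between -0.06 and 0.19. For the interaction EGFR, ERBB3, TGFA, HBEGF and EREG lay between -0.09 and 0.21. The intervals of all these changes together reached from -0.79 to 0.91, and changes within them are not excluded for these genes.

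ERRFI1 read 8.3, 8.73 and 8.22 with TNF plus apigenin, 7.82, 8.05 and 8.03 with TNF, 7.56 and 8.09 with apigenin, and 7.6, 7.26 and 7.78 in control. The TNF plus apigenin arrays lay above all other arrays, and the TNF arrays lay above all control arrays. Group means were 8.41 ± 0.27 (SD, n = 3) with TNF plus apigenin, 7.96 ± 0.13 with TNF (n = 3), 7.83 ± 0.37 with apigenin (n = 2) and 7.55 ± 0.27 in control (n = 3). ERRFI1 rose by 0.87 ± 0.21 with TNF plus apigenin against control (interval 0.43 to 1.3, adjusted p = 0.0358 by limma), and ranked 341 of 15865 genes by p.

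Neither agent alone gave a call for ERRFI1. The change was 0.42 ± 0.21 with TNF against control (limma adjusted p = 0.71) and 0.28 ± 0.23 with apigenin against control (limma adjusted p = 0.541). With 1 apigenin array left, the second value was 0.54 (adjusted p = 0.452) without array apigenin 1 and 0.01 (adjusted p = 0.979) without array apigenin 2, so it depended on which was kept. It was 0.54 after quantile normalization and 0.49 after the median shift. TNF plus apigenin against TNF gave 0.45 ± 0.21 (unadjusted p = 0.045, limma adjusted p = 0.429), and against apigenin 0.59 ± 0.23 (unadjusted p = 0.0222, limma adjusted p = 0.241), or 0.32 without array apigenin 1 (adjusted p = 0.878) and 0.85 without array apigenin 2 (adjusted p = 0.0736). The interaction was 0.17 ± 0.31 (interval -0.49 to 0.83, limma adjusted p = 0.845). It turned to -0.09 without array apigenin 1, to -0.07 after quantile normalization and to -0.09 after the median shift, and was 0.44 without array apigenin 2.

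The call of ERRFI1 was close to the threshold. Leaving out 1 array at a time kept the change between 0.71 and 0.98, and the call held in 6 of 11 such fits. It was lost without control 1 (0.89, adjusted p = 0.101), control 2 (0.72, adjusted p = 0.122), and TNF plus apigenin 1 (0.92, adjusted p = 0.0643), 2 (0.71, adjusted p = 0.17) and 3 (0.96, adjusted p = 0.0546; all by limma). Of the 9 other alternative fits it was lost in 1, the fit of these 2 groups alone (adjusted p = 0.0506). ERRFI1 was also the only 1 of the 8 genes called in any of the 119 alternative fits and comparisons run.

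**Figure D2:**
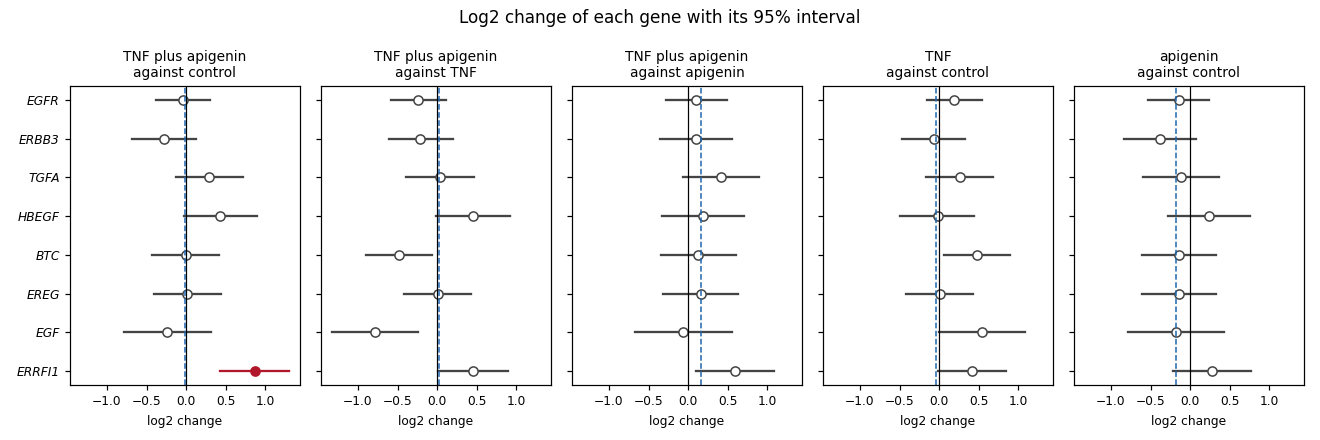
Log2 change (horizontal axis) with its 95% interval for the 8 genes in the 5 group comparisons; filled red points were called by limma over all genes, open points were not, and the dashed blue line is the median change of all 15865 genes. The filled point is ERRFI1 at 0.87 with TNF plus apigenin against control, and EGF against TNF alone has the lowest value, -0.78.

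**Figure D3:**
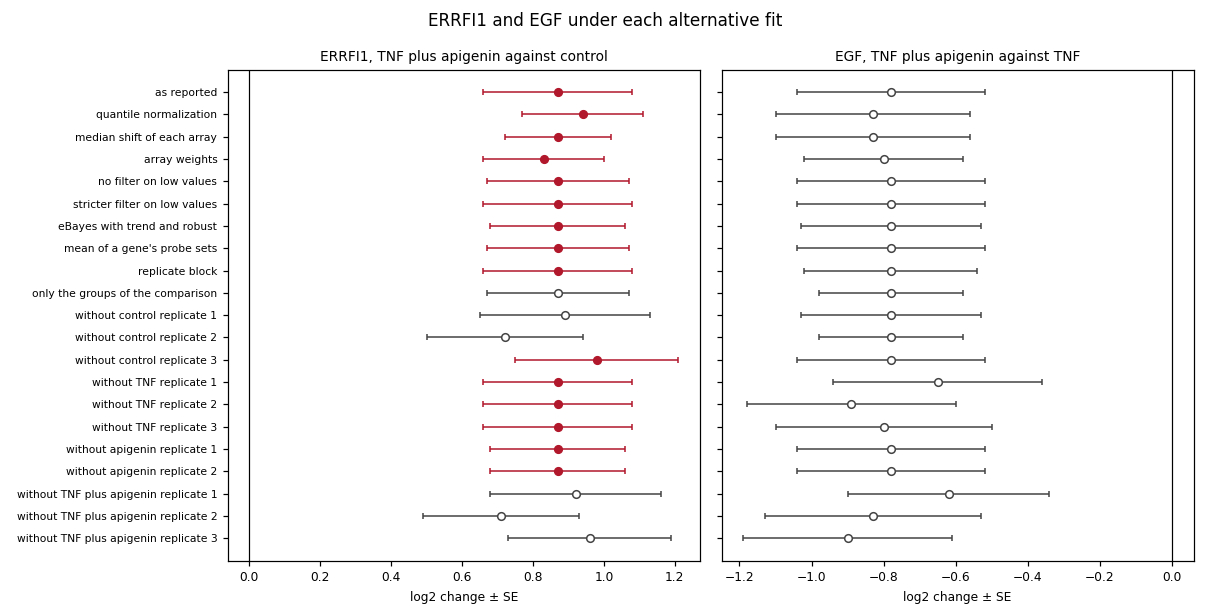
Log2 change ± SE (horizontal axes) of ERRFI1 with TNF plus apigenin against control and of EGF with TNF plus apigenin against TNF, in the reported fit and in each alternative fit (rows); filled red points were called and open points were not. ERRFI1 stayed between 0.71 and 0.98 and was called in 14 of 20 alternatives, and EGF stayed between -0.9 and -0.62 with no call.

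Groups of arrays that do not overlap were also counted. For TNF plus apigenin against control 1 of 8 genes had such groups, against 20.1% of all genes, and with TNF plus apigenin against TNF 4 of 8, against 15.7%. Against apigenin it was 2 of 8, against 25.7%. With TNF against control 2 of 8 had them, against 13.3%, and with apigenin against control 2 of 8, against 31.5%. Of the 4 in the comparison with TNF, HBEGF and ERRFI1 lay higher and BTC and EGF lower with TNF plus apigenin.

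The promoters of the 3 genes with an unadjusted limma p under 0.05 in a group comparison are shown. This choice rests on these same data, and of the 3 only ERRFI1 was called. The RefSeq table (GRCh38.p14) held a promoter for 7 of the 8 genes, from 250 bases before to 50 after the transcription start. Capitals mark matches, on either strand, to the NF-kB motif (GGGNN followed by TTTCC), the AP-1 motif TGANTCA, the cyclic AMP response element TGACGTCA, the core of the aryl hydrocarbon receptor site GCGTG, the GC box GGGCGG and the TATA motif TATAAA. No matches overlapped in these 3 windows.
ERRFI1, chr1:8026260-8026559, minus strand: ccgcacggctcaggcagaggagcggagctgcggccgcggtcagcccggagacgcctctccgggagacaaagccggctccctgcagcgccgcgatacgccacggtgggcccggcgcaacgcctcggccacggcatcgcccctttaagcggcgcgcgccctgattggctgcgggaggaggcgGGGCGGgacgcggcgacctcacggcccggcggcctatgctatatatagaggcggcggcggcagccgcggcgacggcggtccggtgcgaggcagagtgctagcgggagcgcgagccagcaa
EGF, chr4:109912633-109912932, plus strand: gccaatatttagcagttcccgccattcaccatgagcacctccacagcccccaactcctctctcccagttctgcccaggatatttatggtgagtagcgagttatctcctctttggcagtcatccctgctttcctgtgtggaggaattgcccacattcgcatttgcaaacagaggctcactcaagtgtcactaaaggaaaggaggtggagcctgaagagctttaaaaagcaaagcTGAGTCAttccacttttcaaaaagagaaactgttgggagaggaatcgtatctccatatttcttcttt
BTC, chr4:74794474-74794773, minus strand: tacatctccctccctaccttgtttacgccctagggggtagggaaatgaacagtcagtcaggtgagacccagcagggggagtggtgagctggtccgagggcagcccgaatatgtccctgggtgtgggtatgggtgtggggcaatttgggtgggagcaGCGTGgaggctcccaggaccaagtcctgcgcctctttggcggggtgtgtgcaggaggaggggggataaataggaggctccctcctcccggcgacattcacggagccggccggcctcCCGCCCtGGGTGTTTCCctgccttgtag

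The ERRFI1 window held 1 match, a GC box at position -70 relative to the start, which 45.0% of the 35116 promoters of that length also hold. The EGF window held 1 AP-1 match at position -17, present in 7.71% of promoters. The BTC window held an NF-kB match at position 30, present in 1.91% of promoters, with a GC box at position 23 and an aryl hydrocarbon receptor core at position -94 (36.5% of promoters). None of the other windows of these genes held the NF-kB letters. The cyclic AMP response element was found in none of the members' windows and in 1.85% of all promoters, and TATAAA, found in the windows of EREG and of 1 EGFR start, in 11.5%. A match is a string of letters in this window and no sign of binding.

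Genes around the receptors were counted over 7 lists that held 115 genes, of which 97 were tested. The lists were chosen with earlier results of these data known, so the shares below are no test of the pathway. Of these 97, 3 rose and 4 fell with TNF plus apigenin against control (7.22% called, against 2.82% of all genes). With apigenin against control 6 fell and 0 rose (6.19%, against 3.66% of all genes). Against TNF, the combination had 2 higher and 1 lower (3.09%, against 1.07% of all genes), and against apigenin 1 higher (1.03%, against 0.574%). In TNF against control 1 fell (1.03%, against 0.7%). For the interaction limma called 0 of the 97, where 0.0252% of all genes were called, and 9 had an unadjusted p under 0.05, as did 8.16% of all genes.

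The list of 19 negative regulators and endocytosis genes held 17 tested genes. LRIG1, a membrane protein that binds ERBB receptors and promotes their degradation, read 5.56, 5.23 and 5.13 with TNF plus apigenin, 6.31, 5.96 and 5.81 with TNF, 5.21 and 5.37 with apigenin and 6.57, 6.15 and 6.29 in control. Every array with apigenin lay below every array without it. LRIG1 fell by 1.03 ± 0.19 or 2.04-fold with TNF plus apigenin against control (adjusted p = 0.00881 by limma; -0.91 and adjusted p = 0.0543 without control 1). It fell by 1.05 ± 0.21 with apigenin against control (limma adjusted p = 0.015). That call was lost without array apigenin 1 (-0.97, adjusted p = 0.134), control 1 (-0.93, adjusted p = 0.0764) or control 3 (-1.07, adjusted p = 0.0519). Against TNF alone, its change of -0.72 ± 0.19 did not pass (limma adjusted p = 0.101).

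The receptor-type phosphatase gene PTPRK was the other call of this list. It fell by 0.78 ± 0.2 with apigenin against control (limma adjusted p = 0.0465), and it was -0.52 without array apigenin 1 (adjusted p = 0.373). This call held in 2 of 11 fits with an array left out (-1.05 to -0.52) and was lost after quantile normalization (-0.48, adjusted p = 0.0608) or a median shift (-0.57, adjusted p = 0.0575). The other 15 tested genes of the list did not pass with apigenin, and the list median was -0.28, against -0.18 for all genes. At an unadjusted p under 0.05, 7 of the 17 lay lower and 0 higher with apigenin against control (19.5% of all genes either way). This count and the list median were not repeated after a scaling of the arrays, which moved the median of all genes to -0.03 or 0.03.

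Of 13 tested genes of the PI3K-AKT branch, PIK3R1, the regulatory subunit p85 alpha, fell by 1.05 ± 0.21 or 2.07-fold with apigenin against control (limma adjusted p = 0.0136) and 12 did not pass. It read 5.7 and 6.05 with apigenin, against 7.14, 6.73 and 6.89 in control. The call was lost without array apigenin 1 (-0.87) or control 1 (-0.93, adjusted p = 0.0697). With TNF plus apigenin, the PIK3R1 change was -0.32 ± 0.19 against TNF (limma adjusted p = 0.588) and -0.6 ± 0.19 against control (adjusted p = 0.11), neither called. Its interaction was 0.73 ± 0.28 (limma adjusted p = 0.559). Among genes named below, FOS (0.91 ± 0.32), DUSP4 (0.89 ± 0.27) and FOSL1 (0.85 ± 0.37) had larger interactions. None of these was called either (limma adjusted p = 0.54, 0.505 and 0.605). Of 15 tested genes of the adaptors and RAS-MAPK cascade, PRKCA, the gene of protein kinase C alpha, fell by 0.81 ± 0.2 with TNF plus apigenin against control (limma adjusted p = 0.0439). That call held in 3 of 11 fits with an array left out, in which the change lay between -0.94 and -0.65.

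None of the 10 tested genes of ligand shedding and trafficking, among them ADAM proteases, was called by limma in any comparison. At an unadjusted p under 0.05, 1 lay higher with TNF plus apigenin against control, 1 higher against TNF and 2 higher against apigenin, where 15.9%, 11.1% and 15.7% of all genes were past that threshold in either direction. Likewise 1 lay lower with TNF against control and 2 lower with apigenin against control (7.41% and 19.5% of all genes).

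Response genes of the EGF and MAPK route moved in both directions. Of 29 tested with TNF plus apigenin against control, LIF, FOSL1 and CCND1 rose, FOS fell and 25 did not pass, with a list median of 0.24, against -0.02 for all genes. At an unadjusted p under 0.05, 10 of the 29 lay higher and 4 lower (15.9% of all genes either way). FOSL1, an AP-1 subunit often induced by sustained MAPK signalling, read 6.96, 6.37 and 5.78 with TNF plus apigenin, 4.47, 5.04 and 4.69 with TNF, 5.18 and 5.16 with apigenin and 4.34, 4.32 and 4.49 in control. It rose by 1.99 ± 0.25 or 3.98-fold against control (limma adjusted p = 0.000445) and by 1.64 ± 0.25 or 3.11-fold against TNF (limma adjusted p = 0.00383), calls kept in all 20 alternatives each.

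LIF, a cytokine of the interleukin 6 family, read 7.18, 6.82 and 6.61 with TNF plus apigenin, 5.55, 5.66 and 5.49 with TNF, 4.79 and 5.63 with apigenin and 4.26, 4.73 and 4.72 in control. With the combination it rose by 2.3 ± 0.23 or 4.92-fold against control (limma adjusted p = 0.000113), by 1.3 ± 0.23 against TNF (limma adjusted p = 0.0104) and by 1.66 ± 0.25 against apigenin (limma adjusted p = 0.00653). The LIF change with TNF alone against control was 1 ± 0.23 or 1.99-fold, and did not pass (limma adjusted p = 0.0675). With apigenin alone it was 0.64 ± 0.25 (limma adjusted p = 0.177). The call against apigenin was lost without array apigenin 1 (1.24, adjusted p = 0.156), and the call against TNF without TNF plus apigenin 1 (1.15, adjusted p = 0.0595).

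CCND1, the gene of cyclin D1, rose by 0.91 ± 0.2 or 1.87-fold with TNF plus apigenin against control (limma adjusted p = 0.0217). Its values were 6.14, 6.2 and 5.85 with TNF plus apigenin, against 5.39, 4.83 and 5.25 in control. That call was lost without control 2 (0.75, adjusted p = 0.0828), control 3 (0.95, adjusted p = 0.0535) and TNF plus apigenin 1 (0.87, adjusted p = 0.0711) or 2 (0.84, adjusted p = 0.105).

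FOS, an immediate early gene of the MAPK route, fell under each treatment. It read 5.5, 4.86 and 4.74 with TNF plus apigenin, 5.36, 5.49 and 5.3 with TNF, 4.93 and 5.28 with apigenin and 6.35, 6.15 and 6.59 in control. The change was -1.33 ± 0.21 (2.52-fold lower) with TNF plus apigenin, -0.98 ± 0.21 with TNF and -1.26 ± 0.24 with apigenin, each against control (limma adjusted p = 0.00266, 0.0477 and 0.00996). The call with TNF held in 4 of 11 fits with an array left out (-1.09 to -0.86), and that with apigenin was lost without array apigenin 1 (-1.09, adjusted p = 0.124).

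DUSP4, a phosphatase of MAP kinases, fell by 0.8 ± 0.2 with apigenin against control (limma adjusted p = 0.0432), or -0.55 without array apigenin 1 (adjusted p = 0.35). That call held in 2 of 11 fits with an array left out and was lost after the median shift (-0.59, adjusted p = 0.0528). DUSP4 was not called elsewhere, with -0.55 ± 0.18 for TNF against control (limma adjusted p = 0.333). For TNF plus apigenin its change was -0.46 ± 0.18 against control (adjusted p = 0.22) and 0.09 ± 0.18 against TNF (adjusted p = 0.921). In the list of STAT and SRC partners MUC1, a membrane mucin that can associate with EGFR, read 6.55, 6.06 and 5.67 with TNF plus apigenin, 8.05, 7.85 and 7.31 with TNF, 5.73 and 5.98 with apigenin and 7.99, 7.75 and 7.67 in control. Its changes were -1.71 ± 0.24 with TNF plus apigenin against control, -1.64 ± 0.24 against TNF and -1.95 ± 0.26 with apigenin against control (limma adjusted p = 0.00106, 0.00312 and 0.00146). These calls held without array apigenin 1, with -1.83 for apigenin against control, and the other 10 tested genes of the list did not pass in any comparison. At an unadjusted p under 0.05, 7 of the 11 tested genes lay lower and 0 higher with apigenin against control (19.5% of all genes either way). The list median there was -0.46, against -0.18 for all genes. Neither the count nor this median was repeated after a scaling of the arrays, which moved the median of all genes to -0.03 or 0.03.

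In a fit of apigenin and control arrays alone the calls of PIK3R1, LRIG1, PTPRK, FOS and DUSP4 for that comparison were lost (limma adjusted p between 0.0507 and 0.16), and array weights ended all of these but FOS. The LIF call against apigenin (adjusted p = 0.0935) and the PRKCA call (adjusted p = 0.0582) were also lost when the compared groups were fitted alone. Without the filter on low values, the calls of FOS with TNF (adjusted p = 0.0712) and of PRKCA (adjusted p = 0.0583) were lost.

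**Figure D4:**
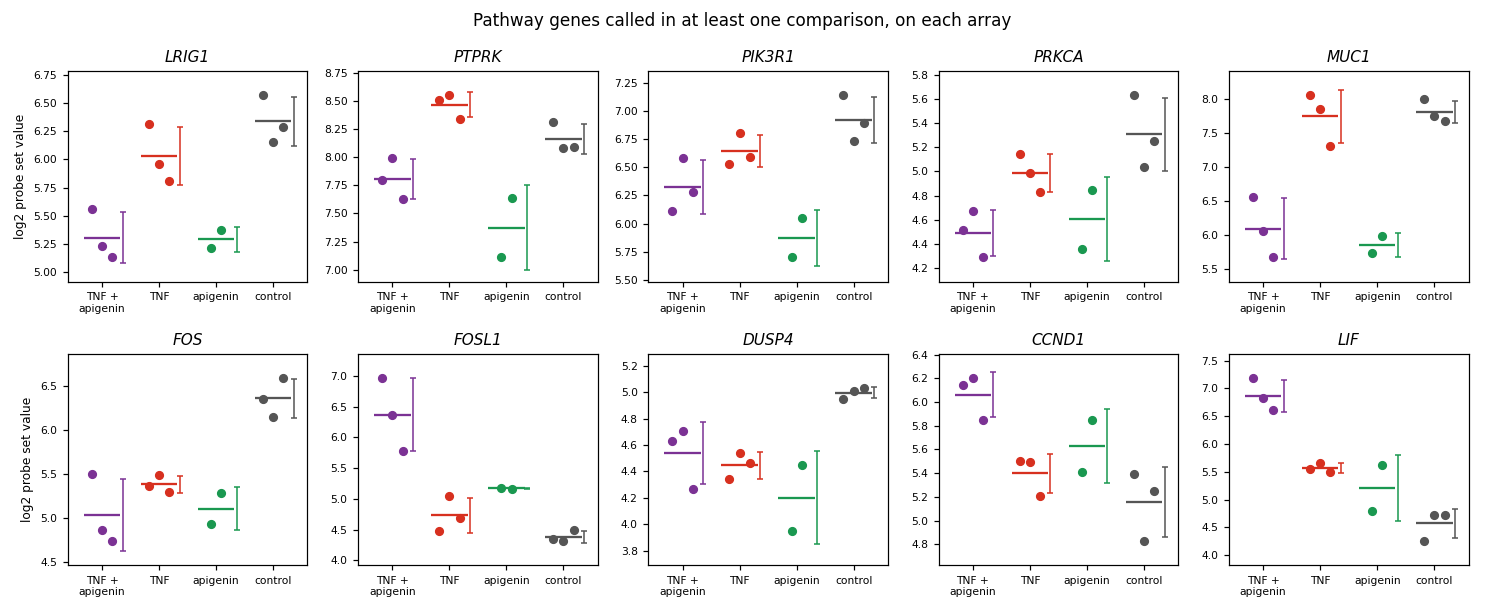
Log2 probe set value (vertical axis, a separate range for each gene) of the 10 listed pathway genes called in at least 1 comparison, on each array by treatment, with the group mean and a bar of ± 1 SD (n = 3, apigenin n = 2). LRIG1 and MUC1 lay lower on every array with apigenin, FOS lay lower in the 3 treated groups than the control arrays at 6.15 to 6.59, and FOSL1 and LIF peaked with TNF plus apigenin.

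For EGFR and ERRFI1 the tested genes with the most similar profile were found by the root mean square difference, over the 11 arrays, of deviations from each gene's own mean. For EGFR, whose SD over the arrays was 0.16, these were PSAP (0.05), RRBP1 (0.07) and TTC16 (0.07). For ERRFI1, with an SD of 0.4, they were WBP4, YIPF5 and UFM1 (0.11 each). The arrays share treatments and any array-wide shift, so this likeness is a description only.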

How the data were processed

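GeneChip Human Gene 2.1 ST arrays measured RNA of MDA-MB-468 cells in 11 samples. The deposited values are log2 probe set summaries, and the submitters' processing notes name Affymetrix Expression Console. Its version, the algorithm and any normalization between arrays are not given in these sources, and the log base was inferred from the range of 0.38 to 12.31. Groups and replicate numbers come from the sample titles.

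Probe sets with exactly 1 gene symbol (23871 of 53617) gave 22395 genes, the probe set with the highest mean standing for a gene with several. Symbols were updated through RefSeq gene numbers. Genes with at least 2 arrays at or above 2.53 were tested. Group means were estimated over all 11 arrays in 1 fit by limma 3.58.1 in R 4.3.3 (lmFit, eBayes, 7 residual degrees of freedom), two-sided, with Benjamini-Hochberg adjustment over all tested genes. The fit was tested on simulated data with independent noise per gene and changes planted only in the TNF plus apigenin group. Those data held no shift of a whole array and no planted change in the apigenin group, so they do not cover these. A fold is given only where both group means lie more than 0.5 above 2.53. The number of arrays limits the precision. Changes of the 8 genes at least as large as their SE, all of EGFR between groups and the ERRFI1 interaction are given one by one. Named pathway genes are all those called in 7 lists. Members, lists and motifs were chosen with earlier results of these data known. Alternatives were other scalings, array weights, filters, moderation, probe set choice, fits of the compared groups alone, a replicate block and leaving out each array.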

Additional observations from a re-analysis of the deposited data

How the results depend on the processing

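TNF against control gave 111 calls, 186 after quantile normalization, 182 after a median shift, 221 with array weights and 60 to 128 with an array left out. Apigenin against control gave 581, 207 with array weights, 103 in a fit of these groups alone and 84 to 1290 with an array left out (84 without apigenin 1, 1290 without apigenin 2). Its split of 35 higher and 546 lower became 146 and 449 after quantile normalization and 148 and 357 after the median shift. TNF plus apigenin against TNF gave 169, then 510 (quantile), 452 (median shift), 391 (array weights) and 85 to 197 with an array left out. TNF plus apigenin against control gave 447, then 1233, 998 and 1197 in the same order and 206 to 538 with an array left out. TNF plus apigenin against apigenin gave 91, then 32 with array weights, 16 in a fit of these groups alone and 18 to 598 with an array left out. Its split of 84 higher and 7 lower became 78 and 18 after quantile normalization and 62 and 15 after the median shift. The interaction gave 4, then 7 (quantile), 10 (median shift), 8 (trend and robust moderation), 0 with a replicate block and 0 to 7 with an array left out. The cause of these differences was not tested.

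Among the changes followed through the alternatives, those that turned in sign were of EGFR and ERRFI1, without a call on either side. For EGFR they were 0.07 for apigenin against control and -0.1 for TNF plus apigenin against apigenin after the median shift, 0.01 for TNF plus apigenin against control after quantile normalization, and -0.09 to 0.03 there with an array left out. The ERRFI1 interaction was -0.07 after quantile normalization, -0.09 after the median shift and -0.09 to 0.44 with an array left out. The smaller changes given only as ranges were not followed through the alternatives, except for calls. The stricter filter left out BTC and EREG. The replicate number as a block kept the ERRFI1 call (0.87, adjusted p = 0.0439 by limma) and ended those of FOS with TNF (adjusted p = 0.0754) and PRKCA (adjusted p = 0.0546). Deviations of arrays with the same number correlated between -0.24 and 0.28 (median 0.02). For arrays with different numbers the range was -0.39 to 0.19 (median -0.02). The ranges overlap and deviations within a small group depend on each other, so this cannot decide whether same-numbered arrays belong together. Leaving out 1 apigenin array leaves 1, assumed to vary like the other groups.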
